A study of Mus musculus with 12 samples.

Results

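Transcripts of 8 mast cell genes were followed in left ventricular RNA by the array probes that carry their names: the proteases Mcpt4, Cma1, Tpsb2 and Cpa3, the receptor gene Kit, the IgE receptor subunit genes Ms4a2 and Fcer1a, and the histamine-forming enzyme gene Hdc. They are 8 of the 34844 gene names on the array and were measured by 9 probes, since Tpsb2 has 2. Of the 8 genes, 6 passed the filter on background and were tested. Ms4a2 and Fcer1a did not, with 0 of 12 arrays above background for either. By limma, Cpa3 was called higher in each of the mutant groups, though it was above background on 0 control arrays. Both the size and the call of the Cpa3 change depended on how background was handled. Mcpt4 was called higher when the mutants were pooled, a call kept in 2 of 12 fits that each left out 1 array. The other 4 tested genes did not pass the test.

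RNA came from the left ventricular wall with the apex, without the septum, of 12 mice aged 6 months, 4 per group and 1 mouse per array. The mutant mice carried floxed Nkx2-5-ΔNeo alleles and Cx40-creERT2, a tamoxifen-inducible Cre placed under Cx40 and active in embryonic trabecular myocardium. Tamoxifen was given to the pregnant mothers on E10.5 and again on E11.5 for the Nkx2-5ΔTrbE10 group (TrbE10, labelled Nkx2-5Δtrab) and on E13.5 and again on E14.5 for the Nkx2-5ΔTrbE14 group (TrbE14, labelled Nkx2-5Δcomp). The study's methods describe the controls as Nkx2-5-ΔNeo fl/fl littermates with wild-type Cx40, so without Cre, whereas the sample labels give them as not injected. After tamoxifen, newborns were delivered by caesarean section and fostered by CD1 mothers. Cre acts in a part of the heart muscle only, so that every sample mixes deleted and non-deleted muscle with the other cells of the wall.

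Mast cells are long-lived immune cells of connective tissue, and in the heart they are sparse and lie mainly along vessels and in fibrous tissue. They depend on stem cell factor acting through Kit, and they are armed by IgE bound to its high-affinity receptor. Their granules hold chymases, tryptases and a carboxypeptidase packed with heparin, along with histamine. In RNA of a whole ventricle, a larger number of mast cells and more RNA of a gene per mast cell cannot be told apart.

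The targeted gene Nkx2-5, a cardiac homeobox factor, was lower by 0.66 on the log2 scale in TrbE10 (adjusted p = 0.0459) and by 0.59 in TrbE14 (adjusted p = 0.106), both by limma. Between 22888 and 26155 probes were well above background on each array and no spot was saturated, with 0 on every array. All TrbE10 arrays lay on 1 slide and all control and TrbE14 arrays on another, so that slide and group cannot be told apart for TrbE10. Y-linked signal marked 1 control, 2 TrbE10 and 3 TrbE14 hearts. Of 8 ventricular muscle genes, which define the sampled tissue, 0 were called in either mutant, where 2.15% of all tested genes were in TrbE10 and 0.760% in TrbE14. At an unadjusted p under 0.05 by limma, 2 were lower in TrbE10 (against 19.8% of all genes called) and 1 in TrbE14 (16.6%). Ryr2 had -0.41 in TrbE10 (adjusted p = 0.0918, limma).

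The probe sequences shown are those of Cma1 and of the dimmer of the Tpsb2 probes, the protease probes besides that of Cpa3 that were above background on 0 control arrays, because these letters are what the low signals stand for. The Cma1 probe spans a splice junction, its 60 bases covering 1060 bases of the genome at chr14:56561491-56562550 (minus strand, mm9 as in the files). The dimmer Tpsb2 probe lies at chr17:25504493-25504552 (plus strand, mm9). Both are given 5′ to 3′.
Cma1 probe: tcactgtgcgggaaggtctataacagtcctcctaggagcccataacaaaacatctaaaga
Tpsb2, dimmer probe: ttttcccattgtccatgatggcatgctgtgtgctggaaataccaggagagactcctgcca

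Promoters are shown for the chymases and the carboxypeptidase, since the results turn on whether these genes moved together. The stretches hold 250 bases before the RefSeq start (GRCm38.p6), 5′ to 3′ on the strand of the gene, with capitals on matches to AGATAA or TGATAA on either strand. These are letters that GATA factors, which act in mast cells, are known to bind.
Cpa3, chr3:20242182-20242431, minus strand: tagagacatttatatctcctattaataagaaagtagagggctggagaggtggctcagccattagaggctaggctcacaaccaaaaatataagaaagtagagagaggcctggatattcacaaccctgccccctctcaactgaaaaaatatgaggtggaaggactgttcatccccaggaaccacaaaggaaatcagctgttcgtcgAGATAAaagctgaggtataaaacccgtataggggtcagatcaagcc
Mcpt4, chr14:56062311-56062560, minus strand: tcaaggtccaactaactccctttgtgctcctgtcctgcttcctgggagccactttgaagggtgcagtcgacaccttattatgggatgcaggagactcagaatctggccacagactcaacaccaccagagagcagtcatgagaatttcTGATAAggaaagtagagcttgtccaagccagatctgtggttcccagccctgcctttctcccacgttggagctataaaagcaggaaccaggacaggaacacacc
Cma1, chr14:55944676-55944925, minus strand: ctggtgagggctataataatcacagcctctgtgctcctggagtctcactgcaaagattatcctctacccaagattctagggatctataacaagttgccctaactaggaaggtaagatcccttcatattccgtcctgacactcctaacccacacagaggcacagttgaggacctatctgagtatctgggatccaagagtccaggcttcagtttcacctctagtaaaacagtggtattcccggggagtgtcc

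The motif stood 46 bases before the start of Cpa3 and 103 bases before that of Mcpt4, once in each, and was absent from the Cma1 stretch with 0 matches. Among all 32841 promoter stretches of this length, 16.6% held it on either strand. The core GATA, which lies within the longer motif, had 3 matches at Cpa3, 1 at Mcpt4 and 3 at Cma1, and 53.6% of all stretches held it. Of the 8 genes, 7 had a promoter in the table. The longer motif was in 4 of them, Mcpt4, Cpa3, Ms4a2 and Fcer1a, and in neither Kit nor Hdc, and the E-box letters CATGTG or CACGTG were in 1 of them, Fcer1a, against 17.6% of all stretches. These are matches of letters only.

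Cpa3, the carboxypeptidase of mast cell granules, was measured by a probe at chr3:20115674-20115733 (minus strand, mm9). Its log2 signal, on the quantile-normalized scale used throughout, was 3.43, 3.09, 2.49 and 2.45 in control replicates 1 to 4. It was 5.28, 4.68, 5.41 and 6.54 in TrbE10 and 5.21, 4.77, 5.14 and 5.66 in TrbE14. All 8 mutant hearts lay above all 4 control hearts. The probe was above background on 0 control, 3 TrbE10 and 4 TrbE14 arrays, so it passed the filter through the mutants alone. The fitted log2 change was 2.61 ± 0.36 (SE, n = 4 and 4) in TrbE10 (adjusted p = 0.00505) and 2.33 ± 0.36 in TrbE14 (adjusted p = 0.0161), by limma with Benjamini-Hochberg adjustment over all probes. With both mutants together it was 2.47 ± 0.32 (adjusted p = 0.00262, limma).

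As the control signal had no measured level, the folds are given against a floor, and they hold on this scale only. The floor was the lowest signal well above background on each control array. Against it Cpa3 was 2.05-fold higher in TrbE10, where replicate 2 was itself below background, and 1.68-fold higher in TrbE14. These folds compare means without their spread, so they are not lower limits. The size of the fitted change depended on how background was treated. With normexp correction it was 0.64 in TrbE10 (adjusted p = 0.0224, limma) and 0.39 in TrbE14 (adjusted p = 0.169), and in the authors' normalized values 0.62 (adjusted p = 0.260) and 0.33 (adjusted p = 0.584). Taken as folds, these changes all lie below those against the floor. Over all alternatives other than leaving out an array, the adjusted p by limma ran from 0.00385 to 0.260 for the TrbE10 change and, for the TrbE14 change, from 0.0123 to 0.584. With both mutants together the change was 0.51 with normexp (adjusted p = 0.0294) and 0.47 in the authors' values (adjusted p = 0.290), and over the alternatives this adjusted p ran from 0.00183 to 0.290, by limma. In TrbE10, Cpa3 was called without any 1 array, with adjusted p from 0.00279 to 0.0212 by limma. In TrbE14 the call was lost without control replicate 3 (adjusted p = 0.0562), control replicate 4 (0.0582) or TrbE14 replicate 4 (0.0554), where the change was still between 2.17 and 2.20. On the slide that control and TrbE14 arrays shared, fitted alone, the TrbE14 change was 2.33 (adjusted p = 0.0123, limma).

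Mcpt4 encodes a chymase of connective tissue mast cells, and its probe lies at chr14:56678589-56678648 (minus strand, mm9). Its log2 signal was 7.04, 5.91, 4.70 and 6.49 in the control hearts, 7.84, 7.01, 8.97 and 9.41 in TrbE10 and 8.01, 7.96, 8.91 and 8.80 in TrbE14. The 4 TrbE14 hearts all lay above the controls, while TrbE10 replicate 2 sat just under control replicate 1. The probe was above background on 11 of 12 arrays, all but control replicate 3. The spread was wide in control (SD 1.00, n = 4) and TrbE10 (SD 1.09, n = 4) and smaller in TrbE14 (SD 0.50, n = 4).

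The mean of Mcpt4 was 4.83-fold the control mean in TrbE10 (log2 change 2.27 ± 0.58 SE, adjusted p = 0.0773) and 5.22-fold in TrbE14 (2.38 ± 0.58 SE, adjusted p = 0.107), neither past the threshold by limma. An exact two-sided permutation test over the arrays gave p = 0.0571 in TrbE10 and p = 0.0286 in TrbE14, the latter being the smallest that 4 against 4 arrays allow. With both mutants pooled, Mcpt4 rose by 2.33 ± 0.50 (SE, n = 8 and 4, adjusted p = 0.0411, limma), and 7 of the 8 mutant hearts lay above all controls. That call rested on the full set of arrays, as it was kept without control replicate 1 or TrbE10 replicate 2 and lost in each of the other 10 leave-outs. Among these 12 fits the adjusted p by limma ran from 0.0168 to 0.119 and the change from 1.88, without control replicate 3, to 2.66. It was also lost with sex as a covariate (adjusted p = 0.0718, limma) and without a filter on background (adjusted p = 0.115), and over the alternatives its adjusted p ran from 0.0299 to 0.115. In TrbE10, Mcpt4 was called by limma when replicate 2, the lowest heart of that group, was left out (2.70, adjusted p = 0.0298), and its adjusted p ran up to 0.204 without another array. SAM, the significance analysis of microarrays that the study's methods name, called Mcpt4 in TrbE14 at a false discovery rate of 5%.

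**Figure D1:**
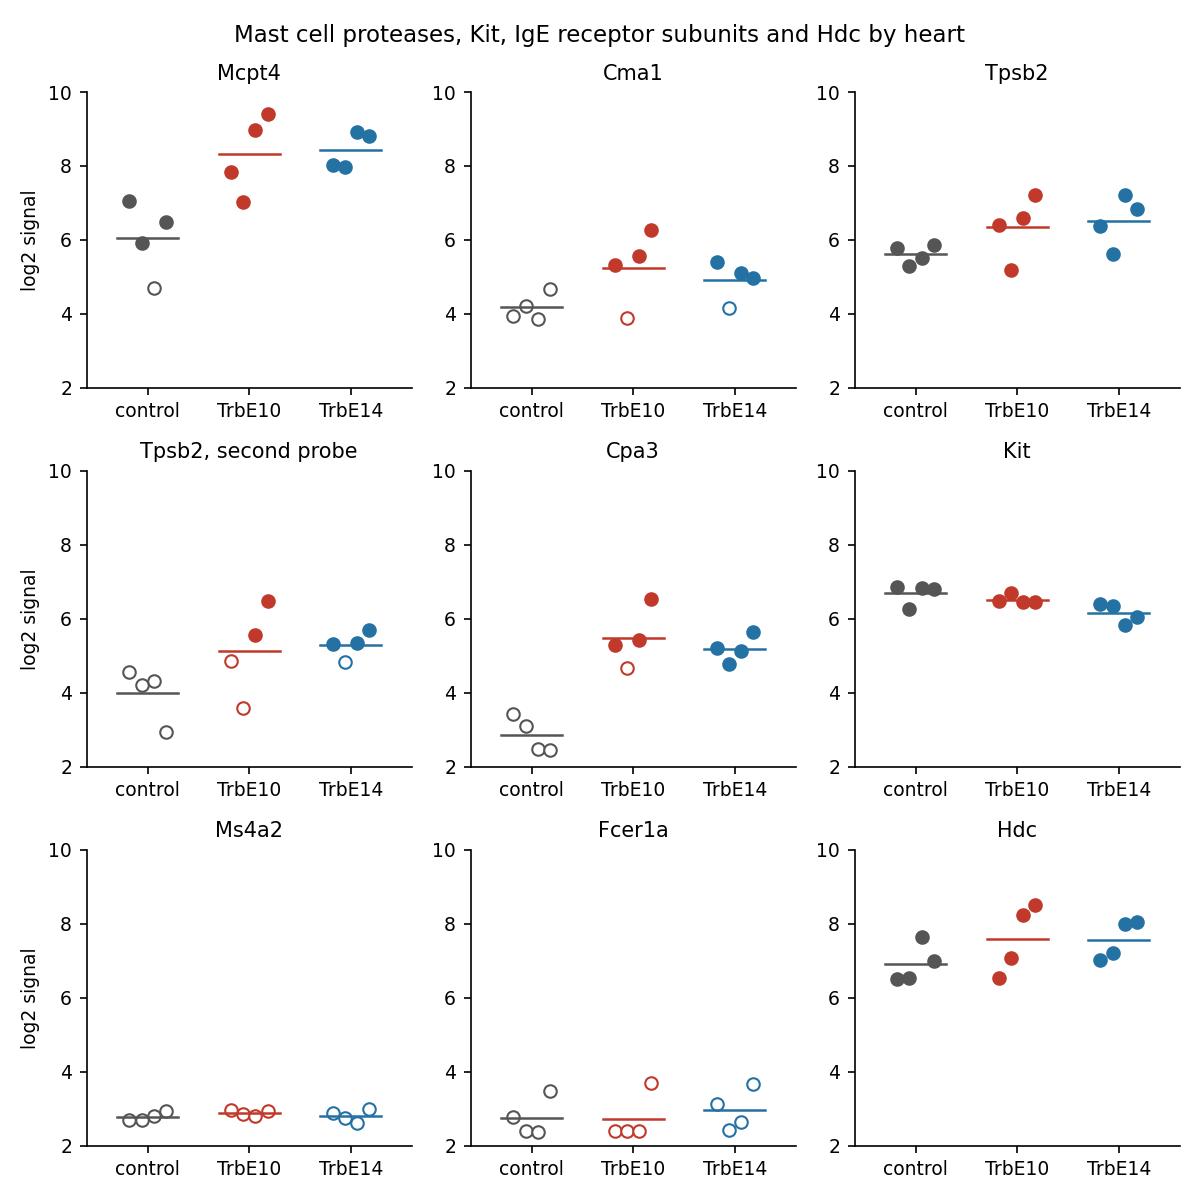
Quantile-normalized log2 signal (vertical axis) of the 9 probes in each heart of the control, TrbE10 and TrbE14 groups. Filled points were above background, open points were not, and bars are group means (n = 4). For Cpa3 every control point is open and lies below every mutant point, while Ms4a2 and Fcer1a are open in all 12 hearts.

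Cma1, another chymase, lies on the same chromosome as Mcpt4 and was close to background in these hearts. Its log2 signal was 3.95, 4.22, 3.87 and 4.67 in control, 5.31, 3.88, 5.56 and 6.26 in TrbE10 and 5.40, 4.15, 5.11 and 4.97 in TrbE14. It was above background on 0 control arrays and on 3 of 4 arrays of each mutant, replicate 2 being the exception in both. Those replicates overlapped the controls, and the other 3 hearts of each mutant lay above them. The mean was higher than in control by 1.08 ± 0.44 (SE) in TrbE10 (adjusted p = 0.261) and by 0.73 ± 0.44 in TrbE14 (adjusted p = 0.482), and neither passed the test by limma. On this scale the bounds were at least 1.73-fold and at least 1.37-fold, but the change was 0.32 in TrbE10 and 0.06 in TrbE14 with normexp correction and 0.47 and 0.17 in the authors' values, below these bounds. Without TrbE10 replicate 2 the TrbE10 change was 1.53 and passed (adjusted p = 0.0355, limma), against adjusted p values of up to 0.459 without another array.

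Tpsb2 encodes a tryptase, a trypsin-like protease of the granule. Its brighter probe (chr17:25504819-25504878, plus strand, mm9) read 5.77, 5.30, 5.51 and 5.86 in control, 6.41, 5.19, 6.58 and 7.21 in TrbE10 and 6.37, 5.61, 7.21 and 6.82 in TrbE14, above background on all 12 arrays. The dimmer probe, whose letters are given above, read 4.56, 4.20, 4.32 and 2.93 in control, 4.85, 3.58, 5.57 and 6.48 in TrbE10 and 5.31, 4.84, 5.34 and 5.71 in TrbE14, above background on 0, 2 and 3 arrays of the groups. On both probes TrbE10 replicate 2 was the lowest mutant heart and lay within or below the control range. On the dimmer probe the 4 TrbE14 hearts all lay above the controls.

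The brighter Tpsb2 probe had a log2 change of 0.74 ± 0.41 (SE) in TrbE10 (adjusted p = 0.407) and 0.90 ± 0.41 in TrbE14 (adjusted p = 0.374). The TrbE10 value was 0.45 without TrbE10 replicate 4 and 1.12 without replicate 2, and with normexp correction the values were 0.38 and 0.42. The dimmer one had 1.12 ± 0.54 (adjusted p = 0.333) and 1.29 ± 0.54 (adjusted p = 0.334). Against the control floor its folds were 1.42 and 1.61 on the quantile-normalized scale, with mutant arrays below background in both means. No value of Tpsb2 passed the threshold by limma, also with both mutants together (0.82, adjusted p = 0.262, and 1.21, adjusted p = 0.213). The related tryptase gene Tpsab1 was above background on 0 of 12 arrays, and whether the Tpsb2 probes also catch related transcripts was not tested.

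Across the 4 proteases the same mutant hearts tended to be high or low. TrbE10 replicate 4 was the highest and replicate 2 the lowest of its group for all 4 genes, with replicate 3 second for all 4. TrbE14 replicate 2 was the lowest of its group for all 4. Control hearts had no such order, as control replicate 4 was the highest for 2 of the genes and the lowest for 1. Averaged over the 4 genes, the log2 signal stood 0.52 above the control mean in TrbE10 replicate 2 and 2.68 above it in TrbE10 replicate 4, whereas TrbE14 hearts ranged from 0.95 to 1.92 and controls from -0.53 to 0.37. Cpa3 weighs on this average, and without it, a choice made after the values were seen, TrbE10 replicate 2 stood at 0.09, below control replicates 1 (0.31) and 4 (0.40), while the other 7 mutant hearts, from 0.63 to 2.35, lay above all controls. Within groups, after the group means were taken out, the correlation between pairs of the 4 genes over 12 arrays ran from r = 0.65 for Cma1 with Cpa3 to r = 0.85 for Cma1 with Tpsb2. These values are a description only, and the TrbE10 arrays differed in slide and scan from the control and TrbE14 arrays. Kit ran the other way, with r from -0.33 to -0.43 against the 4 proteases within groups.

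**Figure D2:**
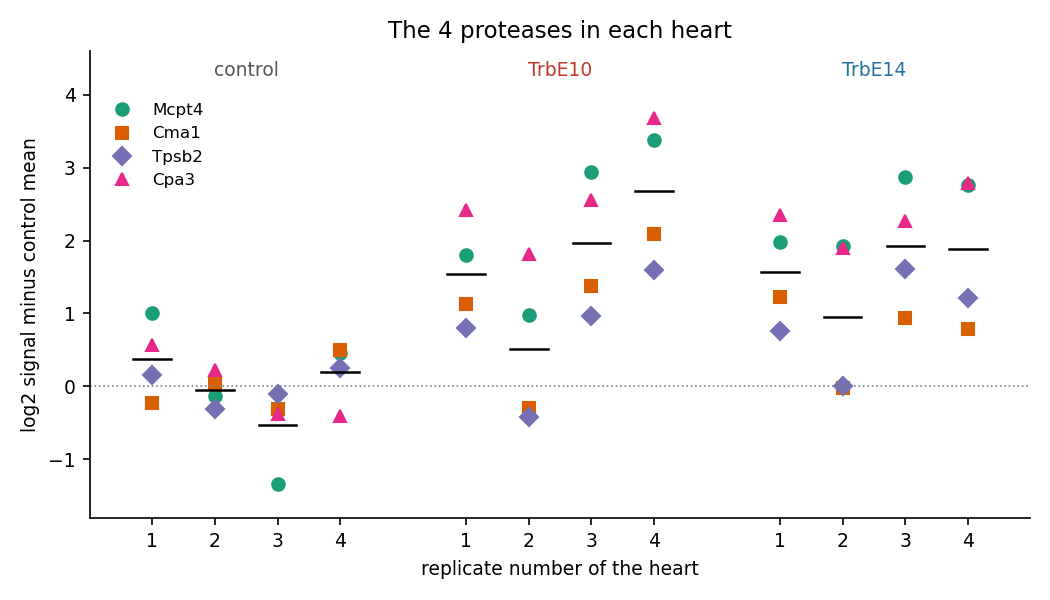
Log2 signal of Mcpt4, Cma1, Tpsb2 and Cpa3 in each heart minus the control mean of that gene (vertical axis), by replicate number within group (horizontal axis). Black bars are the average of the 4 genes, which runs from 0.52 in TrbE10 replicate 2 to 2.68 in TrbE10 replicate 4 among the mutants.

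Kit encodes the receptor tyrosine kinase for stem cell factor, which mast cells need to survive, and which melanocytes and some progenitors carry as well. Its probe (chr5:76052394-76052453, plus strand, mm9) read 6.85, 6.27, 6.82 and 6.80 in control, 6.48, 6.71, 6.45 and 6.45 in TrbE10 and 6.40, 6.34, 5.83 and 6.04 in TrbE14. All 12 arrays were above background, and in both mutants the hearts lay at or below the upper control values. The log2 change was -0.16 ± 0.16 (SE) in TrbE10 (adjusted p = 0.659) and -0.53 ± 0.16 in TrbE14 (adjusted p = 0.199), so that Kit did not pass the test while its mean stood on the other side of the control from the proteases. Every TrbE10 heart lay above every TrbE14 heart for Kit (difference 0.37 ± 0.16 SE), which did not pass over all probes (adjusted p = 0.857, limma). The exact permutation p was 0.0286, the smallest that 4 against 4 arrays allow. These groups lay on different slides, and the share of all genes that separate them in this way was not counted. Between them 7.41% of all genes had an unadjusted p under 0.05 by limma, Kit among them, so the separation is a description only. Kitl, the gene of the Kit ligand, had changes of -0.08 and -0.19 (adjusted p = 0.832 and 0.576, limma).

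The high-affinity IgE receptor is built from an alpha chain (Fcer1a), which binds IgE, a beta chain (Ms4a2) and a signalling gamma chain (Fcer1g). Ms4a2 read between 2.62 and 2.99 and Fcer1a between 2.38 and 3.69 over the 12 arrays, all below background, so neither had a measured level in any group. Fcer1g, which macrophages and other myeloid cells share, was above background everywhere and rose by 0.77 ± 0.14 (SE) in TrbE10 (adjusted p = 0.0190, limma), with 0.47 in TrbE14 (adjusted p = 0.180).

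Hdc makes histamine from histidine. Its probe (chr2:126419516-126419575, minus strand, mm9) read 6.52, 6.54, 7.65 and 6.99 in control, 6.54, 7.09, 8.24 and 8.51 in TrbE10 and 7.03, 7.20, 8.01 and 8.06 in TrbE14. The groups overlapped, since control replicate 3 exceeded 2 hearts of each mutant. The change was 0.67 ± 0.44 (SE) in TrbE10 (adjusted p = 0.487) and 0.65 ± 0.44 in TrbE14 (adjusted p = 0.529), neither past the threshold by limma. The TrbE10 value was 0.37 without TrbE10 replicate 4 and 1.02 without TrbE10 replicate 1.

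**Figure D3:**
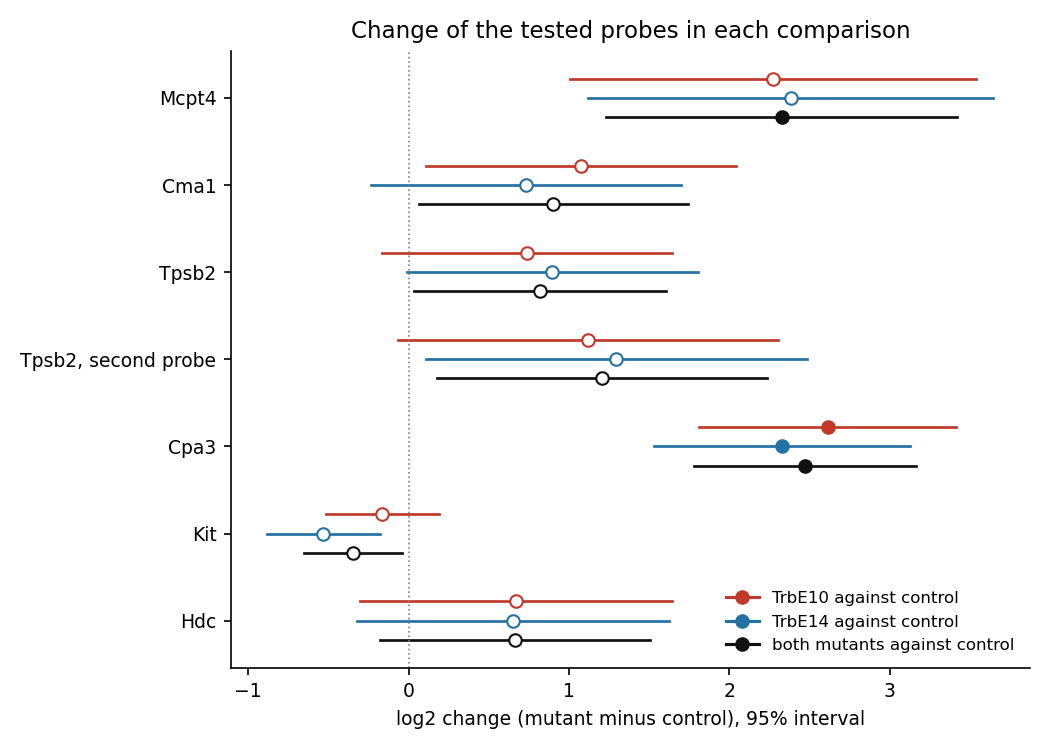
Log2 change (horizontal axis, mutant minus control) of the 7 tested probes with 95% confidence intervals from limma, for TrbE10, TrbE14 and both mutants against control. Filled points had an adjusted p under 0.05, which were Cpa3 in all 3 comparisons and Mcpt4 with both mutants together, and the points of Cpa3, Cma1 and the dimmer Tpsb2 probe rest on control signals below background.

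Counted together, 1 of the 8 genes was called in TrbE10 (Cpa3), where 2.15% of the 18021 tested genes were called, and 1 in TrbE14 (Cpa3), where 0.760% were. With both mutants together 2 were called (Cpa3 and Mcpt4) against 2.42% of all genes. Counting a gene where any of its tested probes passed, the counts at an unadjusted p under 0.05 by limma were 3 in TrbE10 (against 19.8% of all genes), 4 in TrbE14 (16.6%), of which Tpsb2 by its dimmer probe alone, and 5 with both mutants (21.4%), Kit being among them as a lower value in the latter pair. Cpa3 and Cma1 entered the test only because they were bright in the mutants, so these counts are a description. The median log2 change of the 6 tested genes was 0.91 in TrbE10 and 0.81 in TrbE14, where that of all genes was -0.02 and -0.03. These medians include Cpa3 and Cma1 and are a description for the same reason. SAM called 1 in TrbE10 (against 2.68% of all genes), 2 in TrbE14 (1.66%) and 2 with both mutants (6.49%).

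By the brightest tested probe, all mutant hearts lay above all control hearts for 1 gene in TrbE10 (4.95% of all genes), for 2 in TrbE14 (4.65%) and for 1 with both mutants (2.25%). Between TrbE10 and TrbE14, 0 of the genes were called and 0% of all genes were by limma. SAM called 0 of them there too, with 0.0111% of all genes called, and at an unadjusted p under 0.05 by limma 1 was, Kit, against 7.41% of all genes. The intervals of these differences were wide, from -0.52 to 1.08 for Cpa3 and from -1.38 to 1.15 for Mcpt4 on the log2 scale. Both mutant comparisons use the same 4 control hearts.

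**Figure D4:**
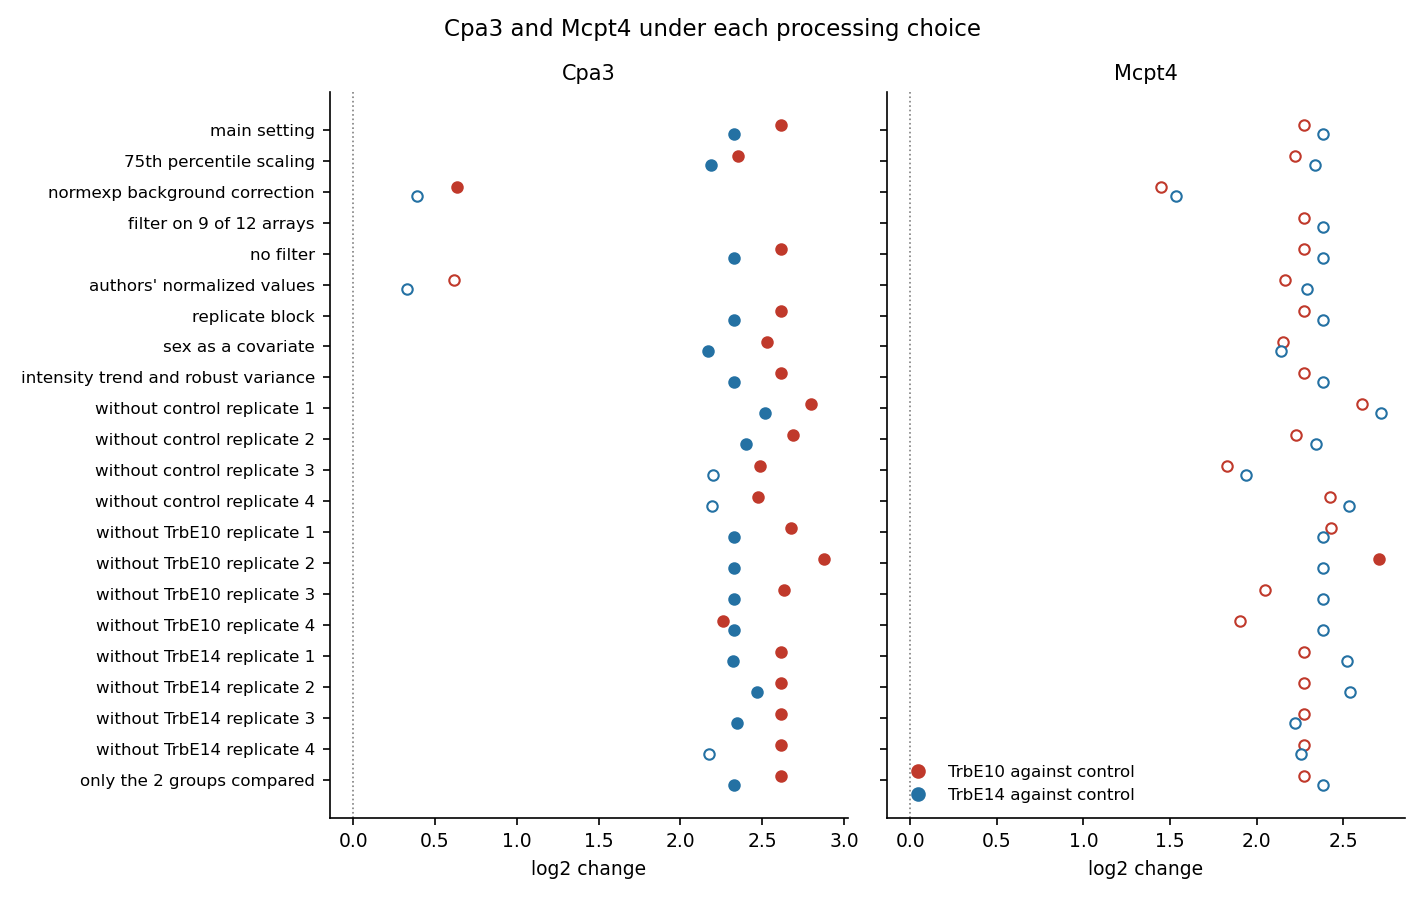
Log2 change (horizontal axis) of Cpa3 and Mcpt4 in TrbE10 and TrbE14 against control under each processing choice (vertical axis). Filled points had an adjusted p under 0.05 by limma. Cpa3 falls to between 0.33 and 0.64 with normexp correction and in the authors' values and has no point under the filter on 9 of 12 arrays, while Mcpt4 stays between 1.45 and 2.72.

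Other genes of the mast cell programme were taken from lists. Of 8 other granule protease genes, 1 was tested, the chymase gene Cma2, with changes of 0.79 in TrbE10 (adjusted p = 0.256) and 0.93 in TrbE14 (adjusted p = 0.255, limma). The mucosal chymase gene Mcpt1 and Tpsab1 were above background on 0 of 12 arrays. Of 10 receptor and transcription factor genes 7 were tested, and 2 rose in TrbE10, Fcer1g and Csf2rb, the shared beta chain of cytokine receptors (0.83, adjusted p = 0.0402, limma), with 0 in TrbE14. The second Csf2rb probe had 0.39 in TrbE10 (adjusted p = 0.456). Gata2, which mast cells and endothelium both use, had 0.35 and 0.44 (adjusted p = 0.142 and 0.126), and Mitf -0.06 and -0.05. Mrgprb2, a receptor restricted to connective tissue mast cells, was above background on 0 of 12 arrays.

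Among 10 tested of 12 genes for granule contents and lipid mediators, Alox5ap, which presents arachidonate for leukotriene synthesis, rose in TrbE10 (0.61, adjusted p = 0.0127, limma) and 0 were called in TrbE14. The uncalled ones lay on both sides of the control. Rab27b, a GTPase of granule release, had 1.05 ± 0.29 (SE) in TrbE10 and 0.56 in TrbE14, with 0.73 and 0.56 on its second probe, Ltc4s, which makes leukotriene C4, had -0.66 (adjusted p = 0.0918) and -0.30, and Srgn, the core protein of granule proteoglycans, had 0.16 and 0.11. Of 14 genes for signalling from Kit and the IgE receptor, all 14 were tested and 0 were called in either mutant. The largest values were those of Lat2, an adaptor of this pathway (1.88, adjusted p = 0.0552, and 1.43, adjusted p = 0.201), whose probe was above background on 0 control arrays. Of 7 genes for Kit ligand and mast cell cytokines 2 were tested, Kitl and Il33, and of 7 for histamine receptors and breakdown 1 was, Hnmt, with 0 called in either list.

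Markers of other cells moved in the same hearts. Of 10 macrophage genes, all tested, 4 rose in TrbE10 and 1 in TrbE14, with Csf1r at 1.14 (adjusted p = 1.12e-04) and 0.92 (adjusted p = 6.07e-04, limma) on the brightest of its 3 probes and, on the probe with the smallest change, 0.70 (adjusted p = 0.0619) and 0.46 (adjusted p = 0.273). In TrbE10 the others that rose were Fcgr1, an Fc receptor gene above background on 0 control arrays (1.25, adjusted p = 0.0151), C1qa, a complement chain (0.72, adjusted p = 0.0265), and the lysosomal marker Cd68 (0.60, adjusted p = 0.0239, limma). The mean log2 signal of the 10 genes was between 8.46 and 8.54 in control hearts, 8.93 and 9.31 in TrbE10 and 8.78 or higher in TrbE14, so that all mutant hearts lay above all control hearts. Of 7 fibroblast genes 1 rose in both mutants, Dcn (0.39 and 0.50, adjusted p = 0.0377 and 0.0190), and the mean of the 7 ran from 11.11 to 11.48, 11.47 to 11.90 and 11.35 to 11.91 in the 3 groups. Of 6 mesothelial genes 4 were tested and 1 rose, Krt19, by 3.97 and 3.55 (adjusted p = 0.00122 and 0.00341) from a control signal above background on 1 of 4 arrays, with list means from 5.00 to 7.26, 6.18 to 8.49 and 6.99 to 8.46. Of 7 atrial muscle genes 6 were tested and 2 rose in TrbE10 (Bmp10 and Sln) and 1 in TrbE14 (Bmp10). Bmp10 was above background on 0 control arrays, and the atrial myosin light chain gene Myl7 had -0.12 and 0.00. The part of these cells in the protease signals was not tested.

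The other marker lists gave 0 calls. Of 4 basophil genes 1 was tested (Il3ra, 0 called), and the basophil protease gene Mcpt8 was above background on 0 of 12 arrays. Neutrophil genes had 0 called of 4 tested, T and B cell genes 0 of 5, and adipocyte genes 0 of 5, with a median of -1.35 in TrbE10 and -0.27 in TrbE14 for the last. Melanocyte genes, of cells that also carry Kit, had 0 called of 4 tested with a median of -0.52 in TrbE10 and -0.23 in TrbE14.

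**Figure D5:**
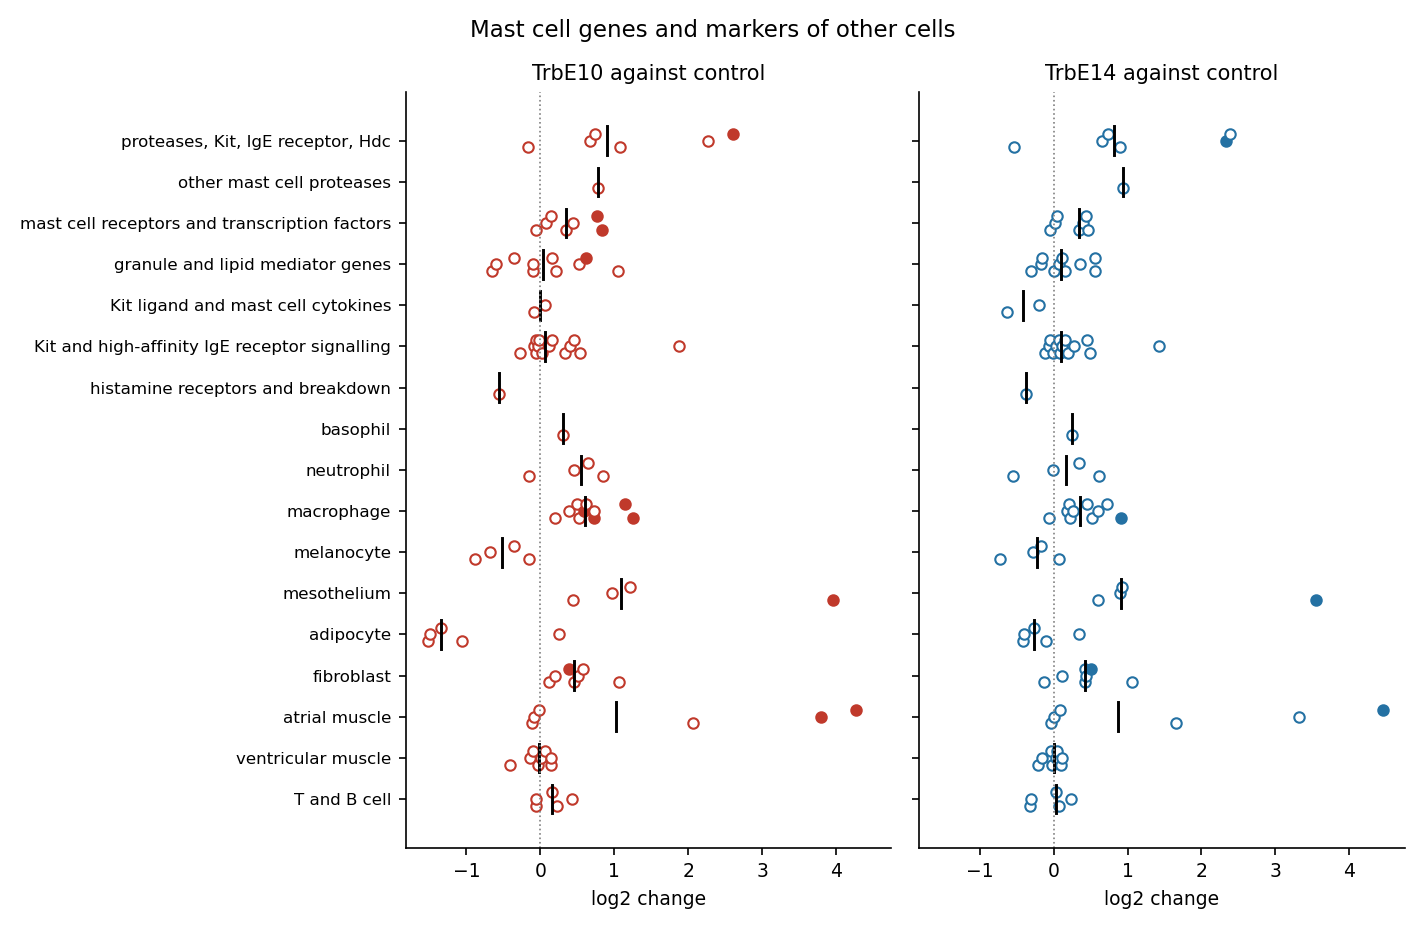
Log2 change (horizontal axis) of every tested gene of each list in TrbE10 and in TrbE14 against control, 1 point per gene, filled where the adjusted p was under 0.05 by limma. Black bars are list medians, at 0.91 and 0.81 for the mast cell genes followed here and at 0.61 and 0.35 for macrophage genes. The former include Cpa3 and Cma1, which were tested only because they were bright in the mutants.

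Over the 12 arrays, the genes outside the 8 whose signal ran closest to the average of the 6 tested ones, each scaled to its own spread, were Akap2, Tpm3, Msn, Cma2, Abcg2, Slc17a9, Nup93, Tifa, Otud5 and Lat2, with Pearson's r from 0.96 to 0.91 among 18009 genes searched. Akap2, Tpm3 and Msn ran closer than Cma2, with r = 0.96, 0.95 and 0.95, and kept r = 0.92, 0.89 and 0.89 within groups. Cma2, a chymase gene, had r = 0.94 (Spearman's rho 0.94, and r = 0.90 without the 2 arrays farthest from the median) and kept r = 0.95 within groups. Lat2, an adaptor that is phosphorylated after IgE receptor crosslinking, had r = 0.91 (Spearman's rho 0.85, and r = 0.85 without the 2 farthest arrays). Within groups it had r = 0.79, the lowest of these genes. For Mcpt4 alone they were Greb1l, Tcf25, Slc41a2, Layn, F2r, Mib1, Cma2, Cyp1b1, Rab31 and Sct, with r from 0.97 to 0.93. Of these 10, F2r, a thrombin receptor gene, rose in TrbE10 (0.75, adjusted p = 0.0195, limma), and Sct, the secretin gene, in TrbE10 (1.66, adjusted p = 0.00681) and TrbE14 (1.77, adjusted p = 0.00691). As these genes were picked for likeness to Mcpt4 on the same arrays, their changes are not separate findings. Both sets are ranks among many genes over few arrays, and they describe likeness only.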

How the data were processed

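Left ventricular RNA of 12 mice was labelled with Cy3 and hybridized to one-colour Agilent 8x60K mouse arrays, 1 per mouse. The authors deposited scanner output (Agilent Feature Extraction 10.5 per the submitters' processing notes), whose processed signal is a background-subtracted intensity without scaling between arrays, and a background-filtered, quantile-normalized table on the log2 scale. For the values given here, the log2 of the processed signal was quantile normalized across the arrays (limma 3.58.1 in R 4.3.3). Control spots (3671 of 62976) and outlier spots were left out, and spots of a probe were averaged. Probes well above background on 3 of 4 arrays of any group were kept (24593 probes). One mean per group was fitted with limma (9 residual and 2.19 prior degrees of freedom) over all probes, with Benjamini-Hochberg adjustment and a threshold of 0.05. A gene is named by its brightest kept probe. The method was tested on simulated data. Syk, Adgre1 and Aoc1 were found under older names. Folds against a floor are on the quantile-normalized scale. The floor uses each dim array's lowest signal well above background, or the probe's own where higher. The other group enters by its plain mean, also where an array was below background. Figures used matplotlib 3.10.9. The 8 genes and the lists were chosen with earlier results of these data known. Named are all 8, the called genes of each list with up to 3 others, and the 10 genes most like the 8 and most like Mcpt4.

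The alternatives tried were normexp with offset 50, 75th percentile scaling, the authors' values, 2 other filters, 2-group fits, a replicate block, sex, a variance trend, SAM and leaving out each array. The number of arrays limits the precision. Coordinates are those of the files (mm9) unless RefSeq (GRCm38.p6) is named, and no builds were mixed.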

Additional observations from a re-analysis of the deposited data

Results flagged for a closer look

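In 3 of 27 groups of 4 hearts, 1 heart stood apart from the others of its group by more than Dixon's ratio allows, where chance gives about 5% of groups. For Kit in control hearts it was replicate 2, the lowest (ratio 0.916), and for Kit in TrbE10 hearts replicate 2, the highest (ratio 0.856). For Fcer1a in TrbE10 hearts it was replicate 4, the highest (ratio 0.991), at a log2 signal of 3.69 that was itself below background.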

How the results depend on the processing

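The number of the 8 genes called in TrbE10 (1) became 0 under the filter on 9 of 12 arrays, which leaves Cpa3 untested as it was above background on 7, and 0 in the authors' normalized values, where the cause was not tested. In TrbE14 (1) it became 0 under these and under normexp, whose offset of 50 shrinks changes of dim probes by construction, and 2 by SAM. With both mutants (2) it became 1 under the filter on 9 of 12 arrays, without a filter, in the authors' values, with sex as a covariate and with the replicate number as a block. Leaving out 1 array at a time, the counts ran from 1 to 3, from 0 to 1 and from 1 to 2, and between the mutants they stayed at 0. The replicate numbers were not treated as pairs in the main fit. Of same-numbered hearts, 3 of the 4 pairs between TrbE10 and TrbE14 correlated above 0.1 (-0.01 to 0.48) and 0 of the 8 pairs with control did (-0.24 to 0.08). These correlations do not settle whether the numbers pair the hearts. The replicate block gave 1, 1, 0 and 1 members called in TrbE10, TrbE14, between mutants and with both, where Mcpt4 lost its call (adjusted p = 0.0597, limma). Over all genes, the 387 called in TrbE10 became 183 without a filter and 246 in the 2-group fit, the 137 in TrbE14 became 223 under normexp and 299 by SAM, and the 437 with both became 243 without a filter and 1170 by SAM; leaving out 1 array gave 149 to 650, 76 to 174 and 189 to 734. Differences between TrbE10 and TrbE14, none of them called, changed sign for Hdc in the authors' values (-0.016) and for Mcpt4 with sex as a covariate (0.0103). With arrays left out they ran from -0.48 to 0.32 for Mcpt4, from -0.45 to 0.23 for Tpsb2, from -0.0697 to 0.55 for Cpa3 and from -0.28 to 0.37 for Hdc. Signals near background limit Cpa3, Cma1 and the dimmer Tpsb2 probe. The direction against control of the 6 tested genes was kept under every alternative that gave a value.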
